A study of Caenorhabditis elegans with 36 samples.

Results

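RNA that sediments with single ribosomes was compared between ppp-1(wrm15) and WT Caenorhabditis elegans on day 1 of adulthood. The table of the series lists 41875 loci, of which 38790 carry 1 gene name, and the 12536 of these that reached 1 FPKM in ppp-1(wrm15) or WT monosomes are described here. FPKM are sequenced fragments of a locus scaled by its transcript length and by the size of the library. The 3 loci just inside this minimum were osm-10, ntc-1 and clec-36, each at 1.00 FPKM in its higher group, WT. The 3 just outside it were clec-139, F26G1.11 and R05G6.5, each just under 1 FPKM in WT.

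The ppp-1(wrm15) animals carry a point mutation in ppp-1, which encodes the gamma subunit of eIF2B. The allele came from an ethyl methanesulfonate screen for long-lived worms and was outcrossed before use, so it stands for 1 mutagenised line. WT animals were of the Bristol N2 strain and carried neither ppp-1 allele. Both groups were grown at the same temperature on the same bacteria, with about 12000 whole worms lysed in cycloheximide for each of 4 libraries a group, 8 of the 36 libraries of the series. The other libraries held ppp-1(wrm10), a second point mutant of the same gene, and total and polysome RNA of all 3 genotypes.

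In the start of translation, the factor eIF2 brings the initiator tRNA to the small ribosomal subunit, and eIF2B reloads eIF2 with GTP after each round. The kinases GCN-2 and PEK-1 phosphorylate the alpha subunit of eIF2, which blocks eIF2B and lowers initiation. This pathway is called the integrated stress response. A monosome is a single 80S ribosome on a message (or an empty one), whereas a polysome is a message with several ribosomes, and short coding sequences hold few ribosomes even when they are well translated.

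The deposited table gives 1 value per group, pooled by the authors over the 4 libraries, and neither counts nor values of single libraries. The spread between libraries and the sequencing depth are therefore unknown, no value below has an error, and no difference was tested. A locus is called higher or lower where log2((ppp-1(wrm15) + 0.1)/(WT + 0.1)) was at least 1 in size, a 2-fold change on that scale. Several named genes overlap another annotated gene, so their reads may be shared. Among them are spe-27, spe-19, spe-9, dlc-6, F46A8.6, irld-7, elo-7, snf-7, fipr-1, T13F3.6, spn-4, nos-2, tnc-2, sip-1, linc-18 and gcn-2. Others are vit-2, his-72, islo-1, best-26, F55G11.4, Y116A8A.2, Y116A8A.7 and those marked beside their values. In these whole animals, fewer cells of a type and less RNA per cell cannot be told apart.

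Of the 12536 loci, 803 were at least 2-fold higher in ppp-1(wrm15) monosomes (6.41%) and 193 were at least 2-fold lower (1.54%). The median change was -0.04 on the log2 scale, with quartiles of -0.23 and 0.19. The higher loci had a median of 14.1 FPKM in ppp-1(wrm15) and 3.6 FPKM in WT, and the lower loci a median of 0.585 FPKM in ppp-1(wrm15) and 2.81 FPKM in WT. Among loci above 0 in both groups, 55 were at least 8-fold higher and 2 at least 8-fold lower. These 8-fold counts leave out 55 higher loci listed at 0 in WT and 47 lower loci listed at 0 in ppp-1(wrm15). The change to higher values thus involved more loci and more abundant RNAs than the change to lower values. The median log2 change was 1.71 in the higher loci and -1.50 in the lower ones, values they were picked for. Protein-coding genes made up 685 of the higher loci and 99 of the lower ones, out of 11729 described (5.84% and 0.844%).

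**Figure D1:**
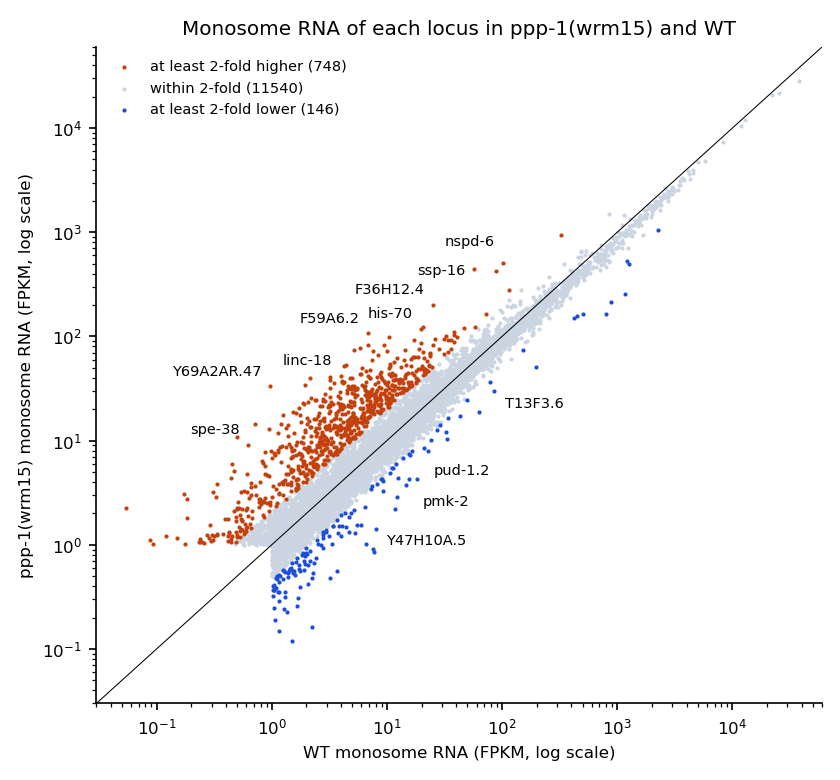
Monosome RNA of each locus, with WT FPKM on the horizontal axis and ppp-1(wrm15) FPKM on the vertical axis, both logarithmic; each point is 1 of the loci above 0 in both groups, coloured by the 2-fold rule, and the line marks equal values. The higher loci lie mostly between 1 and 100 FPKM, and the 102 loci listed at 0 in either group are not drawn.

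The genes of the integrated stress response itself were close to WT in monosomes. The mutated gene, listed as eif-2Bgamma (chromosome II, 6965800 to 6967648, WBcel235), stood at 22.3 FPKM in ppp-1(wrm15) and 24.5 FPKM in WT. A point mutation need not change the amount of RNA, so this level does not check the labels. The kinase gene gcn-2 was at 33.7 FPKM in ppp-1(wrm15) and 31.1 FPKM in WT, and pek-1, the worm PERK, at 17.9 FPKM in ppp-1(wrm15) and 16 FPKM in WT. The transcription factor gene atf-5, also known as atf-4, had 51.4 FPKM in ppp-1(wrm15) and 52.6 FPKM in WT. The subunits of eIF2 lay within 2-fold as well, eif-2alpha with a log2 change of -0.33 and eif-2beta (iftb-1) with -0.27.

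A further gene was looked up with this group and lay furthest from WT, though under 2-fold. This was kin-35, listed under its clone name M04F3.3, which the paper describes as a predicted kinase of unknown function. It had 12.2 FPKM in ppp-1(wrm15) monosomes and 6.31 FPKM in WT monosomes, a log2 change of 0.94. Its change was 0.48 in total RNA and 1.12 in polysomes. In ppp-1(wrm10) monosomes, which are set against the same WT libraries, it was 1.10.

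Sperm genes stood out among the higher loci. Of 62 described sperm genes outside the major sperm proteins, 14 were at least 2-fold higher (22.6%, against 6.41% of all loci) and 1 was lower, and 50 of 62 lay above 0. None of the 62 lies on chromosome X. Of autosomal protein-coding genes 6.70% were higher, and 9.86% of those with a mean of 3 to 30 FPKM. The median change of the 62 was 0.44 in monosomes, 0.30 in total RNA and 0.13 in polysomes, against -0.04, -0.04 and -0.02 over all loci. The list was drawn up from gene names with earlier results of these data known.

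The largest change among them was that of spe-38, which encodes a membrane protein that sperm need to fertilise the egg. It had 9.16 FPKM in ppp-1(wrm15) monosomes against 0.626 FPKM in WT monosomes (log2 3.67), and its locus overlaps impt-1. The gene ssp-16, for a small protein with a major sperm protein domain (chromosome I, 6102032 to 6102463), had 446 FPKM in ppp-1(wrm15) and 57.4 FPKM in WT (log2 2.96). It was as much higher in total RNA (369 FPKM in ppp-1(wrm15), 52.3 FPKM in WT) and in polysomes (452 FPKM in ppp-1(wrm15), 60.1 FPKM in WT).

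A second member of that family, ssp-34, had 281 FPKM in ppp-1(wrm15) and 116 FPKM in WT. Genes that act when spermatids become motile were also higher. The level of spe-29 was 9.77 FPKM in ppp-1(wrm15) and 1.78 FPKM in WT, that of spe-27 15.4 FPKM in ppp-1(wrm15) and 4.97 FPKM in WT, and that of spe-19 4.46 FPKM in ppp-1(wrm15) and 1.53 FPKM in WT. The locus of spe-29 lies antisense to gon-1. In the same group, spe-8 and spe-12 changed by only 0.13 and 0.29 on the log2 scale. The sperm surface gene spe-9 had 3.74 FPKM in ppp-1(wrm15) and 1.68 FPKM in WT. The gene spe-44, a transcriptional regulator of sperm formation, had 11.6 FPKM in ppp-1(wrm15) monosomes and 5.39 FPKM in WT monosomes. Its total RNA differed less, with 16.1 FPKM in ppp-1(wrm15) and 13.8 FPKM in WT.

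The major sperm proteins, the cytoskeletal and signalling proteins that make up much of a sperm, did not share this direction. Of 33 described msp genes none was 2-fold higher, 1 was 2-fold lower (msp-58, near 1 FPKM) and 27 lay below 0. Their median change was -0.15 in monosomes, -0.06 in total RNA and -0.59 in polysomes. As an example, msp-40 had 331 FPKM in ppp-1(wrm15) monosomes and 430 FPKM in WT monosomes, and 360 FPKM in ppp-1(wrm15) polysomes against 649 FPKM in WT polysomes. The msp genes are near-identical copies, so how the reads were split among them is uncertain. The small sperm gene ssp-19 also went the other way, with 12.1 FPKM in ppp-1(wrm15) monosomes and 32.9 FPKM in WT monosomes.

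The presence of sperm, oocyte and somatic RNA was checked with marker genes. Of 15 sperm markers 14 were found by name, with a summed level of 1731 FPKM in ppp-1(wrm15) and 1462 FPKM in WT, and 2 of the 14 were at least 2-fold higher. The 14 oocyte and embryo markers summed to 3354 FPKM in ppp-1(wrm15) and 2692 FPKM in WT. The 9 intestinal markers found summed to 10869 FPKM in ppp-1(wrm15) and 13280 FPKM in WT, and the 7 body muscle markers to 2376 FPKM in ppp-1(wrm15) and 3229 FPKM in WT. The 7 hypodermis markers summed to 526 FPKM in ppp-1(wrm15) and 689 FPKM in WT, although their median log2 change was 0.20. The 7 pharynx markers summed to 44.6 FPKM in ppp-1(wrm15) and 68.5 FPKM in WT, the largest shift of a summed level here (log2 -0.62). Most of that sum came from myo-1, myo-2 and tnc-2, and the median log2 change of the 7 was -0.27. The 8 neuron markers summed to 141 FPKM in ppp-1(wrm15) and 159 FPKM in WT. The 7 markers of the germline syncytium summed to 762 FPKM in ppp-1(wrm15) and 832 FPKM in WT. None of the 5 markers of male tail and seminal fluid reached 1 FPKM in either group. Whether these differences in marker levels reflect numbers of cells, and their part in the monosome changes, was not tested.

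Most of the higher genes have no genetic name. Of the 685 higher protein-coding genes, 582 have only a clone name (85.0%), against 48.3% of all protein-coding genes described. The protein-coding genes with the largest changes, among those at 5 FPKM or more in either group and above 0 in both, were mostly of this kind. Y69A2AR.47 had 33.5 FPKM in ppp-1(wrm15) and 0.957 FPKM in WT (log2 4.99), and F46A8.6 had 14.5 FPKM in ppp-1(wrm15) and 0.712 FPKM in WT. F59A6.2 combined a large factor with a high level, 107 FPKM in ppp-1(wrm15) and 6.85 FPKM in WT. Its total RNA was at 79.7 FPKM in ppp-1(wrm15) and 7.66 FPKM in WT. The dynein light chain gene dlc-6 had 52 FPKM in ppp-1(wrm15) and 4.28 FPKM in WT.

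These genes were higher in all fractions of the mutant. The 15 highest genes by this rule that were matched to the annotation as protein-coding had log2 changes of at least 2.44 in total RNA. In polysomes these were at least 2.49, the lowest values being those of spe-38. The kinase gene kin-31 (log2 3.62 in monosomes) had no such match and is not among the 15.

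Gene families were compared by the stem of their names, for each of the 127 stems with at least 8 described members. In 87 of them no member was 2-fold higher or lower. The family with the largest share of higher members was irld, whose proteins carry the ligand-binding domain of insulin and EGF receptors. Of 9 described irld genes 7 were at least 2-fold higher (77.8%, against 6.41% of all loci), and all 9 lay above 0. The median change of the family was 1.79 in monosomes, 1.13 in total RNA and 0.85 in polysomes. The gene irld-57 had 12.8 FPKM in ppp-1(wrm15) and 0.944 FPKM in WT, and irld-14 had 43.7 FPKM in ppp-1(wrm15) and 6.01 FPKM in WT. The smallest change was that of irld-7, at 1.67 FPKM in ppp-1(wrm15) and 1.31 FPKM in WT. None of the 9 lies on chromosome X.

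In other families the called members were fewer and the changes of the rest were graded. Among 18 protein kinase genes named kin, 4 were higher (22.2%, against 6.41% of all loci). These were kin-31 (40.9 FPKM in ppp-1(wrm15), 3.23 FPKM in WT), kin-24 (18.2 FPKM in ppp-1(wrm15), 2.59 FPKM in WT), kin-21 (17.6 FPKM in ppp-1(wrm15), 3.63 FPKM in WT) and kin-26 (16.2 FPKM in ppp-1(wrm15), 3.93 FPKM in WT). The next, kin-5 and kin-14, were at 0.68 and 0.66, and the lowest, kin-16, at -0.70. The catalytic and regulatory subunits of protein kinase A, kin-1 and kin-2, had log2 changes of -0.36 and -0.34. Another abundant higher gene was F36H12.4, with 202 FPKM in ppp-1(wrm15) and 25 FPKM in WT, and its locus overlaps the antisense F36H12.17. Among 8 ABC transporters of the white family, wht-4 (24.1 FPKM in ppp-1(wrm15), 4.79 FPKM in WT) and wht-5 (29.2 FPKM in ppp-1(wrm15), 6.72 FPKM in WT) were higher (25% of the family), and the other 6 lay between 0.14 and 0.75.

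Neprilysins, which are membrane metallopeptidases, lay between -0.33 and 1.63 on the log2 scale, with nep-5 beyond them at 2.92. Of 19 described, 4 were higher (21.1%, against 6.41% of all loci), the least of them nep-6 at 1.01 and the next below it nep-23 at 0.90. The gene nep-5 had 11.1 FPKM in ppp-1(wrm15) and 1.38 FPKM in WT, whereas nep-17, the most abundant, had 167 FPKM in ppp-1(wrm15) and 204 FPKM in WT. Of the 9 fatty acid elongases, elo-8 (16 FPKM in ppp-1(wrm15), 5.48 FPKM in WT) and elo-7 (7.32 FPKM in ppp-1(wrm15), 3.39 FPKM in WT) were higher (22.2%), and the other 7 were between -0.28 and -0.13. Among neurotransmitter transporters of the snf family, snf-7 had 14.4 FPKM in ppp-1(wrm15) and 1.19 FPKM in WT, and snf-2 had 20.1 FPKM in ppp-1(wrm15) and 3.91 FPKM in WT. These were 18.2% of the family, and the other 9 snf genes lay between -0.53 and 0.69.

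Of 51 described histone genes, his-70 was the single 2-fold higher one and 1 was 2-fold lower (1.96% each way, against 6.41% and 1.54% of all loci). The median of the list was 0.03 in monosomes and 0.48 in total RNA. The gene his-70, for an H3 variant of the replication-independent type, had 118 FPKM in ppp-1(wrm15) monosomes and 19.7 FPKM in WT monosomes (log2 2.58), with 77.5 FPKM in ppp-1(wrm15) total RNA and 15.8 FPKM in WT total RNA. The related variants did not follow it, with 31 FPKM in ppp-1(wrm15) and 34.8 FPKM in WT for his-71 and a log2 change of -0.01 for his-72.

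**Figure D2:**
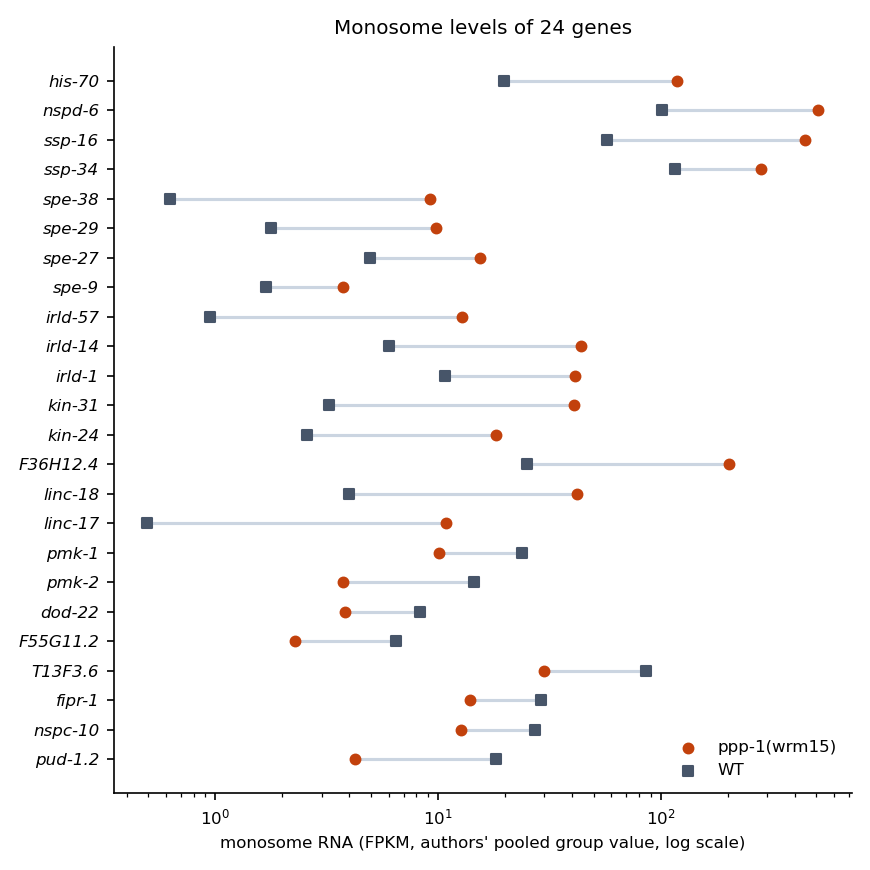
Monosome FPKM of 24 genes, most of them named in the text, on a logarithmic axis, with a circle for ppp-1(wrm15) and a square for WT. Each symbol is the authors' pooled value of 4 libraries and has no error bar. The upper 16 genes are higher in ppp-1(wrm15) and the bottom 8 are lower.

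The higher genes were almost absent from chromosome X. Of 1548 protein-coding genes described on X, 3 were at least 2-fold higher (0.194%), against 682 of 10181 on the autosomes (6.70%). Those 3 (D1005.10, K02D3.2 and K09C8.7) were all near 1 FPKM. The autosomal shares ran between 5.26% on V and 8.86% on IV. The median level of these genes in ppp-1(wrm15) monosomes was 5.83 FPKM on X and 16.8 FPKM on the autosomes, so the count was repeated for genes with a mean of 3 to 30 FPKM. It was then 0 of 888 on X and 513 of 5201 on the autosomes (9.86%). The same held in total RNA, with 0 of 888 on X against 396 of 5201 on the autosomes (7.61%), and in polysomes with 0 of 888 on X against 331 of 5201 (6.36%). None of the 62 sperm genes of the list and none of the 33 msp genes lies on X.

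The lower genes were not depleted there. On X 12 protein-coding genes were at least 2-fold lower (0.775%), against 87 on the autosomes (0.855%). The median change was -0.12 on X and -0.03 on the autosomes in monosomes, whereas in total RNA it was -0.03 on X and -0.04 on the autosomes.

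**Figure D3:**
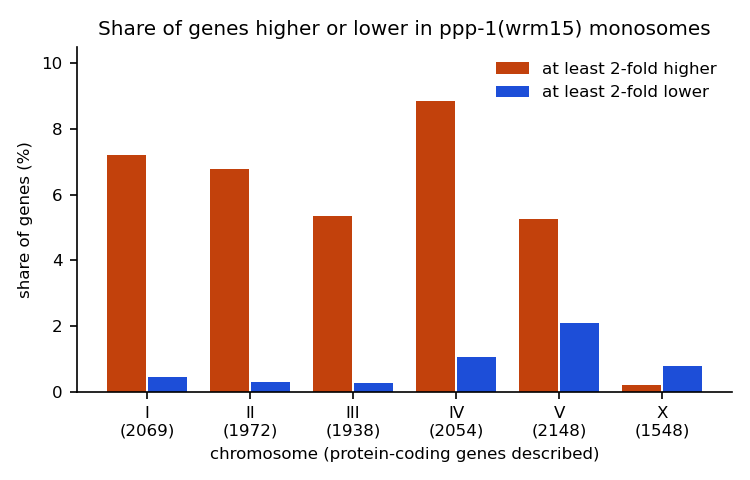
Share of the described protein-coding genes of each chromosome that were at least 2-fold higher or at least 2-fold lower in ppp-1(wrm15) than in WT monosomes, in percent, with the number of genes under each chromosome. The share of higher genes is 0.194% on X and between 5.26% and 8.86% on the 5 autosomes.

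Higher and lower genes were shorter than average. The coding sequence had a median of 262 codons in the 685 higher genes and 153 codons in the 99 lower genes, against 365 codons over all 11729. Of genes with up to 75 codons 18.5% were higher and 4.87% lower, whereas of genes with more than 1200 codons 1.04% were higher and 0.173% lower. Short genes collect fewer reads at a given FPKM, and the part of that in these shares was not tested.

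Most of the higher genes were also higher in total RNA, which was sequenced in other libraries of the same genotypes. The paper describes this total RNA as corresponding to the fractions, so it need not stand for separate animals. Of the 685, 489 were at least 2-fold higher in total RNA (71.4%) and 673 lay above 0, with a median of 1.32. In polysomes 412 were at least 2-fold higher (60.1%), with a median of 1.18. Over all loci described, 4.84% were 2-fold higher in total RNA and 4.25% in polysomes. The median of the 685 in monosomes was 1.68, but these genes were picked for that value. Picking genes on total RNA instead gave 514 protein-coding genes that were at least 2-fold higher there. Their median was 1.51 in total RNA, 1.84 in monosomes and 1.43 in polysomes, and 433 of them had the larger change in monosomes (84.2%).

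Of the 99 lower protein-coding genes, 27 were at least 2-fold lower in total RNA and 28 in polysomes, and the medians were -1.22 in monosomes, -0.55 in total RNA and -0.51 in polysomes, where the first is the value they were picked for. Picking on total RNA instead gave 58 protein-coding genes that were at least 2-fold lower there. Their median was -1.2 in total RNA, -0.91 in monosomes and -0.78 in polysomes, and 44 of them were less lowered in monosomes than in total RNA. Of all loci described, 0.917% were 2-fold lower in total RNA and 1.24% in polysomes.

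Sets of at least 4 described loci in a row were among the lower ones. They were sought with a looser limit, a log2 change of -0.8 or below, chosen after the values were seen, and 3 were found. At the 2-fold limit there were 2, those on chromosome V and at dod-22. The p38 MAP kinase genes pmk-3, pmk-2 and pmk-1, which act in immune and stress signalling and share an operon on chromosome IV (8139219 to 8151156), formed the first with the adjacent islo-1. Of these 4 genes, pmk-2 and pmk-1 passed 2-fold. For pmk-1 the monosome level was 10.15 FPKM in ppp-1(wrm15) and 23.9 FPKM in WT. For pmk-2 it was 3.73 FPKM in ppp-1(wrm15) and 14.6 FPKM in WT, and for pmk-3 9.06 FPKM in ppp-1(wrm15) and 16.7 FPKM in WT. The log2 changes of islo-1, pmk-3, pmk-2 and pmk-1 were -0.95, -0.87, -1.94 and -1.23.

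In the other fractions of this mutant the same 4 genes were at -1.01, -1.72, -2.29 and -1.41 in total RNA and at -0.63, -0.51, -1.41 and -1.22 in polysomes. In ppp-1(wrm10) monosomes, set against the same WT libraries, the values were 0.04, -0.11, 0.11 and -0.04. On either side, isp-1 was at -0.30 and faah-2 at -0.18 in ppp-1(wrm15) monosomes. The difference between the alleles was not tested.

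The second was a cluster of genes with CUB-like domains on chromosome IV (12965387 to 12978343), of a kind known from the response to bacteria. There dod-22 had 3.81 FPKM in ppp-1(wrm15) and 8.28 FPKM in WT, F55G11.2 had 2.28 FPKM in ppp-1(wrm15) and 6.47 FPKM in WT, and dod-17 had 5.41 FPKM in ppp-1(wrm15) and 11.22 FPKM in WT. The log2 changes of dod-22, F55G11.2, F55G11.4 and dod-17 were -1.10, -1.47, -1.15 and -1.04. Their changes in ppp-1(wrm10) monosomes were -1.23, -1.29, -0.60 and -1.09. In ppp-1(wrm10) F55G11.4 did not pass 2-fold.

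The third lay on chromosome V (3355848 to 3401063), at low levels. It held scrm-3, C04E12.4, C04E12.2, T20D4.11 and T20D4.10, with log2 changes of -0.88, -1.13, -1.55, -1.19 and -1.14. The most abundant, C04E12.4, which overlaps C04E12.2, had 1.51 FPKM in ppp-1(wrm15) and 3.42 FPKM in WT. In ppp-1(wrm10) monosomes the 5 were at -0.09, -1.26, -1.39, -0.76 and -0.90.

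**Figure D4:**
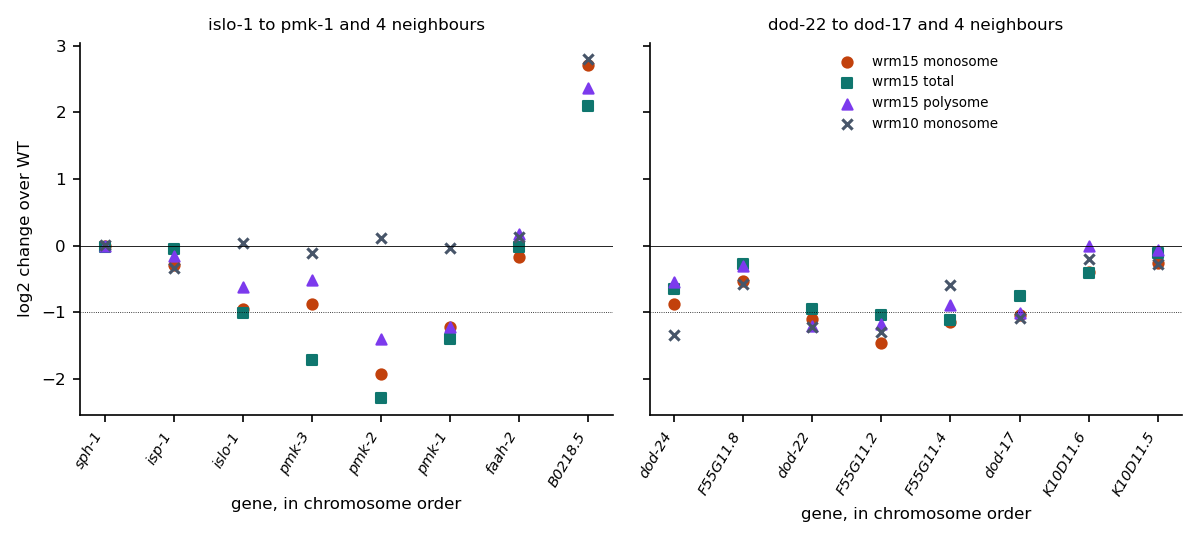
log2 change over WT of the genes from islo-1 to pmk-1 (left) and from dod-22 to dod-17 (right), each with 2 described genes on either side, in chromosome order; symbols give ppp-1(wrm15) monosome, total and polysome RNA and ppp-1(wrm10) monosome RNA. The 4 genes on the left are below 0 in all 3 fractions of ppp-1(wrm15) and within 0.11 of 0 in ppp-1(wrm10), and the 4 on the right are below 0 in every set.

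In the other direction 3 runs of at least 4 loci passed 2-fold. On chromosome I (14198612 to 14220624) the bestrophin chloride channel genes best-26, best-25, best-10 and best-11 were higher together with ZK849.6. The most abundant of the channels, best-10, had 9.41 FPKM in ppp-1(wrm15) and 1.87 FPKM in WT, and the other 13 best genes were within 2-fold. The other 2 runs lay on chromosome IV. From Y116A8A.2 to Y116A8A.7 (16813368 to 16830790) 4 genes were higher, the most abundant being Y116A8A.6 with 5.15 FPKM in ppp-1(wrm15) and 0.472 FPKM in WT. From T06A10.106 to Y116A8C.470 (16868812 to 16919312) 4 genes were higher. Of these, T06A10.106 had 8.59 FPKM in ppp-1(wrm15) and 1.18 FPKM in WT, and the next 2 loci have the same position, so their reads may be shared.

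Single lower genes with the largest changes included Y47H10A.5, at 1.43 FPKM in ppp-1(wrm15) and 7.98 FPKM in WT (log2 -2.40), and T13F3.6, at 29.8 FPKM in ppp-1(wrm15) and 85.5 FPKM in WT (log2 -1.52). Their total RNA was lower by as much, -2.97 for Y47H10A.5 and -1.59 for T13F3.6. This did not hold for every such gene. The lowest protein-coding gene at 5 FPKM or more in either group and above 0 in both was ZK353.10, which overlaps ZK353.11. Its log2 change was -2.58 in monosomes and 0.13 in polysomes, and its total RNA was below 1 FPKM in both groups. Y50D4A.10, antisense to Y50D4A.1, was at -1.78 in monosomes and 0.71 in total RNA, and its polysome RNA was also above WT. The drug transporter gene pgp-6 had 8.57 FPKM in ppp-1(wrm15) and 21 FPKM in WT, and the detoxification gene ugt-26 16.6 FPKM in ppp-1(wrm15) and 34.2 FPKM in WT. Among 102 described cytochrome P450, UDP-glucuronosyltransferase and glutathione S-transferase genes, ugt-26 was 1 of 3 that were 2-fold lower (2.94%, against 1.54% of all loci). None of the 102 was higher, and the median was -0.21.

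Nematode-specific peptides differed between families. Of 50 described, 7 were 2-fold lower (14%, against 1.54% of all loci) and 2 higher (4%, against 6.41%), with 39 below 0. All 16 described nspc genes, which all lie on X, were below 0, with a median of -0.87 in monosomes, -0.38 in total RNA and -0.16 in polysomes. Of the 16, 4 were 2-fold lower (25%, against 1.54% of all loci). The gene nspc-10 had 12.7 FPKM in ppp-1(wrm15) monosomes and 27.4 FPKM in WT monosomes, but 57.1 FPKM in ppp-1(wrm15) polysomes and 61.1 FPKM in WT polysomes. The copies are so alike that reads may have been split between them. In the nspd family 8 of 9 were above 0, and nspd-6 was the furthest, with 511 FPKM in ppp-1(wrm15) and 101 FPKM in WT.

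The antimicrobial-type fipr peptides differed by chromosome, a split made after the values were seen. The 13 on chromosomes V and X were all below 0, with a median of -0.83, for example fipr-1 with 14 FPKM in ppp-1(wrm15) and 29.1 FPKM in WT. The 7 on III and IV were all above 0, for example fipr-17 with 7.74 FPKM in ppp-1(wrm15) and 2.40 FPKM in WT. The medians in ppp-1(wrm10) monosomes were -0.26 for those on V and X and 1.37 for those on III and IV. In lysozymes and antimicrobial peptides as a whole, 5 of 68 were higher and 5 lower (7.35% each way, against 6.41% and 1.54% of all loci).

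RNAs of the oocyte and eggshell lay mostly above their WT level, within 2-fold. None of 43 described genes passed 2-fold, but 35 lay above 0 and the median was 0.32 in monosomes, 0.17 in total RNA and 0.32 in polysomes. The maternal RNA-binding protein genes pos-1 (91.6 FPKM in ppp-1(wrm15), 55.9 FPKM in WT), spn-4 (log2 0.63) and nos-2 (log2 0.76) were among them. In total RNA pos-1, spn-4 and nos-2 were at 0.13, 0.01 and 0.18, and in polysomes at 0.76, 0.64 and 0.71. The values in ppp-1(wrm10) monosomes were 0.23, 0.25 and 0.32.

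Messages for the translation machinery lay slightly below their WT level in monosomes, none of them by 2-fold. All 76 cytosolic ribosomal protein genes lay below 0, within 0.39 of it, with a median of -0.24 in monosomes, -0.06 in total RNA and -0.11 in polysomes. For rpl-3 the values were 3272 FPKM in ppp-1(wrm15) and 4259 FPKM in WT. The medians of translation factors (-0.24, 50 genes), aminoacyl-tRNA synthetases (-0.23, 31 genes) and mitochondrial ribosomal proteins (-0.22, 65 genes) were alike.

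Other abundant RNAs were alike. Of the 286 protein-coding genes with a mean above 300 FPKM, 72 are cytosolic ribosomal protein genes, and the other 214 had a median change of -0.24, with 196 of them below 0. Vitellogenins, the yolk proteins made in the intestine, had a median of -0.27 over 6 genes, for example vit-2 with 2845 FPKM in ppp-1(wrm15) and 3421 FPKM in WT. Total RNA of vit-2 was at 2040 FPKM in ppp-1(wrm15) and 1864 FPKM in WT. FPKM are relative to the whole library, and the described loci summed to 757042 FPKM in ppp-1(wrm15) and 845929 FPKM in WT.

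Of 36 muscle filament genes none passed 2-fold, but all lay below 0, with a median of -0.41 in monosomes, -0.15 in total RNA and -0.27 in polysomes. The body muscle myosin gene unc-54 had 703 FPKM in ppp-1(wrm15) and 970 FPKM in WT, and the pharyngeal troponin C gene tnc-2 had 13.5 FPKM in ppp-1(wrm15) and 22.3 FPKM in WT. Neuropeptides and insulins had a median of -0.33 over 105 genes. Of these, 3 were lower (2.86%, against 1.54% of all loci) and 1 was higher (0.952%, against 6.41%). Among them ins-28, an insulin-like peptide gene, had 4.26 FPKM in ppp-1(wrm15) monosomes and 8.91 FPKM in WT monosomes. Its total RNA was at 2.67 FPKM in ppp-1(wrm15) and 2.88 FPKM in WT.

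Few stress and surface genes passed 2-fold. The 19 chaperones and folding enzymes of the endoplasmic reticulum had a median of -0.08 and none passed 2-fold. The BiP gene hsp-3 stood at 454 FPKM in ppp-1(wrm15) and 509 FPKM in WT. Of 17 cytosolic heat shock genes 1 was 2-fold lower, hsp-16.49, near 1 FPKM. The highest change was that of hsp-12.6 (log2 0.64), also near 1 FPKM. The abundant small heat shock gene sip-1 had 666 FPKM in ppp-1(wrm15) and 482 FPKM in WT (log2 0.47), and -0.14 in ppp-1(wrm10) monosomes. The 32 proteasome subunits had a median of -0.12. Of 116 cuticle collagens 1 was 2-fold higher, with a median of 0.03 in monosomes and 0.28 in total RNA. No nuclear hormone receptor out of 142 passed 2-fold.

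The counts of further lists are given beside the shares of all loci (6.41% higher and 1.54% lower). Of 76 C-type lectins 6 were higher (7.89%) and 1 lower (1.32%), and clec-142 was the furthest, with 6.81 FPKM in ppp-1(wrm15) and 0.997 FPKM in WT. Of 23 desaturases, acyl-CoA dehydrogenases and lipases 3 were higher (13%), with acdh-5 the most abundant at 21.2 FPKM in ppp-1(wrm15) and 10.4 FPKM in WT. Of 132 F-box and MATH genes 3 were higher (2.27%), and fbxa-202 had 14.7 FPKM in ppp-1(wrm15) and 4.98 FPKM in WT. Of 46 transthyretin-like genes, ttr-9 was higher with 21.7 FPKM in ppp-1(wrm15) and 4.19 FPKM in WT. The lower one, ttr-4, was listed at 0 in ppp-1(wrm15). Of 44 hedgehog-related and patched-related genes, grl-32 was higher, with a median of 0.16 over the list. The 23 peptidases, 12 chemoreceptors and 8 genes of the mitochondrial genome had medians of -0.19, -0.15 and -0.39.

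**Figure D5:**
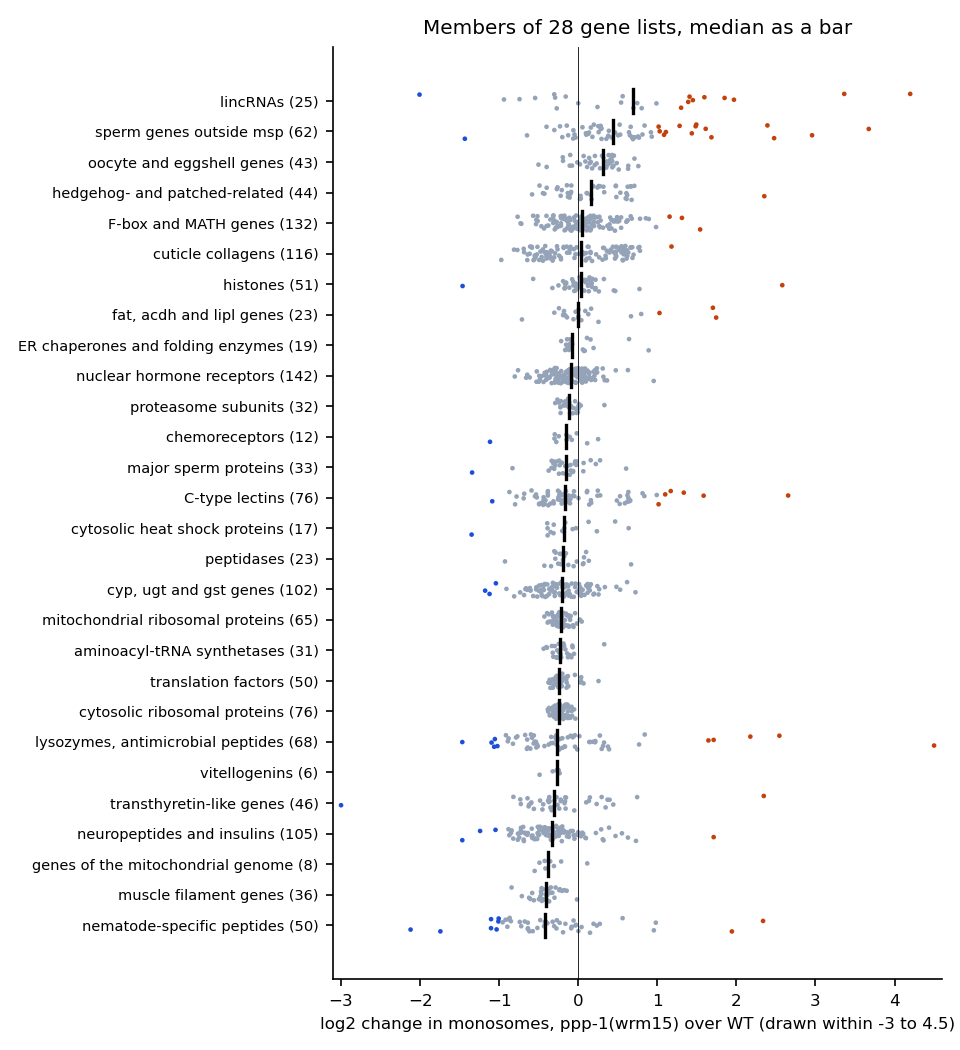
log2 change in monosomes, ppp-1(wrm15) over WT, of the described members of 28 gene lists, 1 point a gene, with the median of each list as a black bar and the number of members in brackets; values beyond the axis are drawn at its ends. Medians run between -0.42 (nematode-specific peptides) and 0.70 (lincRNAs), and coloured points are genes past 2-fold.

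Non-coding RNAs held a larger share of changed loci than coding ones, of which 5.84% were higher and 0.844% lower. Of 25 loci named as long intergenic non-coding RNAs, 9 were higher (36%, against 6.41% of all loci) and 1 lower (4%, against 1.54%). Their median was 0.70 in monosomes, 0.88 in total RNA and 0.00 in polysomes. The level of linc-18 was 42.0 FPKM in ppp-1(wrm15) and 3.99 FPKM in WT, and that of linc-17 10.8 FPKM in ppp-1(wrm15) and 0.495 FPKM in WT. The non-coding tts-1, known from other long-lived worms as an RNA that associates with ribosomes, was looked up after the values were seen. It had 5.2 FPKM in ppp-1(wrm15) monosomes and 1.73 FPKM in WT monosomes, and 52.4 FPKM in ppp-1(wrm15) total RNA against 12.3 FPKM in WT total RNA. It was at 2.35 FPKM in ppp-1(wrm10) monosomes.

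Very short RNAs gave the most extreme values. Of 135 small nucleolar RNAs 13 were higher (9.63%) and 32 lower (23.7%), and of 31 small nuclear RNAs 5 were higher (16.1%) and 8 lower (25.8%). The shares of all loci described were 6.41% higher and 1.54% lower, so the share of higher small nucleolar RNAs was not far from that of all loci. Of the 15 highest and 15 lowest loci at 5 FPKM or more, 12 were listed at 0 in WT and 15 at 0 in ppp-1(wrm15). An example is the small nucleolar RNA T03F7.8, with 329 FPKM in ppp-1(wrm15) and 0 in WT. Another is ZK994.7, with 0 in ppp-1(wrm15) and 1030 FPKM in WT. Such a 0 can be a failed estimate for an RNA shorter than the sequenced fragments, so no factor is given. Over all loci 102 were listed at 0 in either group.

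Finally, the monosome change was set against the change in total RNA for the 8624 loci at 5 FPKM or more in a monosome group and a total group. The difference of the log2 changes was at least 1 for 38 loci (0.441%) and at most -1 for 43 (0.499%), so for most of these loci the changes in the fractions lay within 2-fold of each other. Of the protein-coding genes, Y94H6A.7 had the largest difference (6.23), which came from its total RNA. Its log2 change was -0.45 in monosomes, -6.68 in total RNA and -3.98 in polysomes, with 1157 FPKM in WT total RNA. The locus of Y94H6A.7 overlaps the non-coding Y94H6A.15, and the part of that RNA in these values was not tested. C54G6.8 had 11.3 FPKM in ppp-1(wrm15) monosomes and 4.24 FPKM in WT monosomes. Its total RNA went the other way, with 3.87 FPKM in ppp-1(wrm15) and 6.49 FPKM in WT. The gene C25E10.17, antisense to nhr-30, had a log2 change of 2.59 in monosomes, 0.54 in total RNA and 1.92 in polysomes. For frm-7 the monosome levels were close, 33.2 FPKM in ppp-1(wrm15) and 31.9 FPKM in WT, whereas its total RNA was at 40.3 FPKM in ppp-1(wrm15) and 18.2 FPKM in WT. The locus of frm-7 overlaps F55C5.17 and the small nucleolar RNAs C51F7.3 and C51F7.4, and the part of these in its total RNA was not tested.

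A few messages were higher in monosomes and lower in polysomes with nearly equal total RNA. Of 8269 protein-coding genes looked at, 7 had a log2 change of at least 0.5 in monosomes, at most -0.5 in polysomes and under 0.3 in size in total RNA. The gene C05B5.2 had 33.4 FPKM in ppp-1(wrm15) monosomes and 16.2 FPKM in WT monosomes, and 29.9 FPKM in ppp-1(wrm15) polysomes against 50.0 FPKM in WT polysomes. The others were C33F10.1, C33F10.11, C04F12.7, F41H10.1, gipc-2 and Y106G6G.4. In ppp-1(wrm10) monosomes the 7 lay between 0.18 and 0.72. This set was defined after the values were seen.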

How the data were processed

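Monosome-associated RNA of ppp-1(wrm15) and WT worms was depleted of ribosomal RNA and sequenced by the authors. They mapped reads to WBcel235 with HISAT2 (2.1.0), assembled transcripts with StringTie (1.3.4d) and used the Cufflinks suite (2.2.1) for merging, quantification and comparison. The deposited values are FPKM, 1 value per group, which the authors' run pooled over 4 libraries. The run's normalization options and the strandedness of the libraries were not stated in any source read, so overlapping and antisense genes cannot be told apart. The authors' table also holds log2 fold changes, test statistics (a score), p-values, q-values and significance calls; none was used. With no counts there, sequencing depth stays unknown.

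Loci with 1 name and at least 1 FPKM in either group were kept, and 3085 loci with joined names were left out. Changes were computed in Python 3.11.15 as log2 ratios with a pseudocount of 0.1 FPKM; 34994 loci were matched by name to Ensembl annotation (release 115, WBcel235). Without values of single libraries no test was computed. Named genes were those of the integrated stress response with kin-35, and the 15 highest and lowest changes. The 10 largest FPKM differences each way, up to 4 members a list and the 10 largest differences from total RNA each way were also named. Where short RNAs at 0 filled these places, the same rule over protein-coding genes above 0 was added after seeing the values, as were the name-stem families and runs of at least 4 neighbours (2-fold higher, or a log2 change of -0.8 or below). Members and lists were chosen with earlier results of these data known. Alternatives were other pseudocounts, minimums and folds, centring, joined names, protein-coding genes only, and polysomes in place of total RNA.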

Additional observations from a re-analysis of the deposited data

Results flagged for a closer look

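One gene, pud-1.2, changed in opposite directions in monosomes and in total RNA. It had 4.24 FPKM in ppp-1(wrm15) monosomes and 18.2 FPKM in WT monosomes (log2 -2.08), and 9.43 FPKM in ppp-1(wrm15) total RNA against 3.46 FPKM in WT total RNA (log2 1.42). Its polysome change was 1.68. The pud-1.2 gene has near-identical neighbouring copies, so the split of reads among them is uncertain, and the difference between the fractions was not tested.

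Loci whose entry joins several gene names were not part of the comparisons. Of the 218 at 5 FPKM or more, 8 were at least 2-fold higher in ppp-1(wrm15) monosomes and 0 were at least 2-fold lower. Both are smaller shares than those of all loci described, which were 6.41% higher and 1.54% lower at a minimum of 1 FPKM. The most abundant was the entry that joins egl-38 and spch-1, with 280 FPKM in ppp-1(wrm15) and 140 FPKM in WT.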

How the results depend on the processing

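No paired analysis was possible because the deposited values are 1 pooled value per group, and for the same reason no library could be left out. The median over all loci moved by less than 0.1 under every alternative run. The 803 higher loci became 1270 with no minimum, 1330 at 1.5-fold and 298 at 4-fold. The 193 lower loci became 102 with a pseudocount of 1 FPKM, 72 at a minimum of 5 FPKM, 536 with no minimum, 99 among protein-coding genes only, 664 at 1.5-fold and 69 at 4-fold. Low levels and short RNAs thus carry a large part of the lower calls. At 1.5-fold the higher sperm genes were 27 and the higher C-type lectins 17, and the lower nematode-specific peptides 20 and lower lysozymes and antimicrobial peptides 18. Lower nematode-specific peptides were 3 with a pseudocount of 1 FPKM, 4 after centring and 4 at a minimum of 5 FPKM. Lower lysozymes and antimicrobial peptides were 1 with that pseudocount and 3 at that minimum, where 1 was higher. Higher lincRNAs were 5 with a pseudocount of 1 FPKM, 17 with no minimum and 4 at 5 FPKM, and their median was 0.44, 0.084 and 1.49 in these settings. With no minimum the C-type lectins had 19 higher members and a median of 0.050, chemoreceptors a median of -0.037 and F-box and MATH genes one of 0.15. At 5 FPKM the median was -0.10 for cuticle collagens and -0.088 for hedgehog-related and patched-related genes. Against polysomes instead of total RNA, 84 loci were higher in monosomes. Leaving out loci at 0, an alternative added after seeing the data, kept the counts within 1.5 times. Of the named genes, 75 moved by more than 0.1 on the log2 scale with a pseudocount of 1 FPKM and 34 with 0.01 FPKM. With 1 FPKM, 1 higher and 6 lower named genes no longer passed 2-fold, and after centring 2 lower ones did not; none past 2-fold changed sign. The precision that sequencing depth allows is unknown.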
